A study of Mus musculus with 10 samples.

Results

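Pax7, Calcr, Chodl, Cd34, Vcam1, Sdc4, Sdc3, Cxcr4, Foxo1 and Foxo3 mark muscle stem cells (MuSCs) or keep them quiescent, and they were examined here as a set of 10 genes of the 24608 gene symbols in the count table. They were taken from the table by symbol, and all 10 were found. MuSCs were analysed 3 days after injury with cardiotoxin (CTX) in 5 control and 5 Trpm7 conditional knockout (cKO) libraries. Control cells carried Trpm7+/+; Pax7CreERT2/+; Rosa26YFP and Trpm7 cKO cells carried Trpm7flox/flox; Pax7CreERT2/+; Rosa26YFP. All mice were adult, on a C57BL6 background, and received tamoxifen on consecutive days before injury. Both groups therefore shared the CreERT2 allele at the Pax7 locus, the YFP reporter, tamoxifen and CTX, and the deletion of Trpm7, an ion channel that carries magnesium, was limited to cells that had expressed Pax7 when tamoxifen was given. Each library was made from 3000 sorted YFP-positive cells with CEL-Seq2, which reads the 3′ end of each transcript and counts molecules by unique molecular identifiers (UMIs).

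MuSCs rest between the muscle fiber and its basal lamina in a quiescent state and are activated by injury, after which most of their descendants proliferate and differentiate while some return to quiescence. PAX7 is the transcription factor that defines the lineage, and FOXO proteins, Notch signaling and the calcitonin receptor are known to hold resting cells out of the cell cycle. CD34, VCAM1, CXCR4 and the syndecans are surface proteins by which these cells are recognized and sorted, and Chodl is a transmembrane lectin transcript characteristic of resting MuSCs. In activated MuSCs several of these transcripts normally fall while Myod1 and later Myog, which encode myogenic regulatory factors, are induced.

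Total counts ranged from 914361 to 1097709 in control libraries and from 205986 to 581121 in Trpm7 cKO libraries, and every Trpm7 cKO library was the smaller (p = 0.00794 by a two-sided exact permutation test, and 5 against 5 libraries can give no smaller p). The share of mitochondrial counts ranged from 12% to 16.5% in control and from 8.82% to 10.6% in Trpm7 cKO libraries. All 6 markers that define the muscle lineage (Pax7, Myf5, Myod1, Cdh15, Des and Itga7) were present in every library, and Myf5, the lowest of them in the control libraries, had at least 109 normalized counts per 1000000 (CPM) there and 116 in the Trpm7 cKO libraries. Their summed level was 1993 to 2371 normalized CPM in control and 1446 to 2127 in Trpm7 cKO libraries (two-sided exact permutation p = 0.0476). Of the 6, Itga7 (log2 fold change −0.59, adjusted p = 0.00101) and Myod1 were lower, Pax7 and Myf5 were higher, and Cdh15 and Des did not pass. Trpm7 itself had 76.9 ± 9.97 (SD, n = 5) normalized CPM in control and 71.4 ± 22 in Trpm7 cKO libraries, with a log2 fold change of −0.09 (SE 0.198, adjusted p = 0.723), but reads at the 3′ end of the transcript do not check a deletion further upstream. Trpm7 cKO replicates 4 and 5 share a number in their labels whose meaning is not stated, and whether they are independent is not known. In bulk libraries a lower level of a transcript per cell and fewer cells that express it cannot be told apart.

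Values are given as CPM after trimmed mean of M values (TMM) scaling. Differences were tested with the quasi-likelihood F test of edgeR over the 7753 genes that passed a filter on low counts, and adjusted p-values are by Benjamini-Hochberg over all of them. Of the 10 genes, 8 passed that filter, each of them in the control libraries as well as in the Trpm7 cKO libraries. Calcr and Sdc3 did not pass. The 10 genes were chosen with earlier results of these data known, so the shares that follow are given as a description. Of the 8 genes tested, 7 were higher in Trpm7 cKO MuSCs at an adjusted p below 0.05 (87.5%), against 24.6% of all genes tested, and 0 were lower, against 24.1% of all genes tested. Chodl, Cd34 and Foxo1 also exceeded a log2 fold change of 1.5, which makes 37.5% of the 8 genes against 8.49% of all genes tested. No member passed both thresholds in the other direction, for which the figure over all genes was 3.53%. Per 3000 sorted cells rather than per transcript, 2 of the 8 were higher, against 4.9% of all genes tested, and 1 was lower, against 66.6%, and Chodl alone exceeded a log2 fold change of 1.5, against 2.62%, as described after the single genes. For the same 7 genes, with TMM, every Trpm7 cKO library lay above every control library, against 16.6% of all genes tested.

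The sequences before the start sites of Chodl, Cd34 and Foxo1 are shown because these were the members past both thresholds. They come from RefSeq promoter windows of GRCm38.p6, and only the bases before the first annotated exon are printed, on the strand of the gene. Windows were found for 9 of the 10 members, and these were searched on both strands for GTAAACA, a FOXO motif, TGGGAA, the core of the motif of RBPJ, through which Notch acts, and CAGCTG, an E-box of the kind that myogenic factors bind. Capitals mark the only match among the members, a TGGGAA in the sense direction 194 bases before the start site of Chodl.
Chodl, chr16:78930698-78930947, plus strand: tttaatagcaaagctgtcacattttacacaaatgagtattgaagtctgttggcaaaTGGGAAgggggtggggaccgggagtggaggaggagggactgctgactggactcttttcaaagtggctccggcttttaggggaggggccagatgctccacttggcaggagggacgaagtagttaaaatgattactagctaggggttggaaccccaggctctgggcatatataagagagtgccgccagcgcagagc
Cd34, chr1:194938571-194938818, plus strand: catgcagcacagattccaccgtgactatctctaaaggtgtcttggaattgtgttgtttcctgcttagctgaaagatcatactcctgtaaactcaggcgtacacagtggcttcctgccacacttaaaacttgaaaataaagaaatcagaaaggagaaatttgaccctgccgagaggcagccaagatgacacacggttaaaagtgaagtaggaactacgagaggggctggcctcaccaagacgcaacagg
Foxo1, chr3:52268087-52268335, plus strand: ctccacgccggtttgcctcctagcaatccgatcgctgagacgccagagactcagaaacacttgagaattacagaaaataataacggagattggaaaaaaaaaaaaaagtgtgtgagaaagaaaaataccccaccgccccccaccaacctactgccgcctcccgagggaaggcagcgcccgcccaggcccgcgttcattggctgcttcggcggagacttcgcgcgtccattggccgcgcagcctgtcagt
Among 32851 promoter windows of the same length, 25.6% hold TGGGAA, 16.3% hold CAGCTG and 3.65% hold GTAAACA. Neither Cd34 nor Foxo1 holds any of the 3 motifs in its window, and the match in Chodl is of letters only.

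Pax7 encodes the paired-box transcription factor required to maintain MuSCs and lies on the minus strand of chromosome 4 (GRCm38, chr4:139737062-139833528). In control libraries 1 to 5 its normalized CPM was 166, 196, 208, 202 and 259, and in Trpm7 cKO libraries 1 to 5 it was 547, 532, 468, 265 and 557. Replicate 4 lay just above the highest control, and the other Trpm7 cKO libraries lay well above it. The means were 206 ± 33.7 and 474 ± 122 (SD, n = 5 each), a log2 fold change of 1.19 (SE 0.183, adjusted p = 2.4e-05). Whether transcripts of the CreERT2 allele contributed to the Pax7 counts was not tested, and that allele was present in both groups.

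Foxo1 and Foxo3 encode forkhead factors that are kept out of the nucleus by AKT and that promote quiescence genes in MuSCs. Foxo1 (chr3:52268336-52353221, plus strand) had 32.8, 40.3, 36.5, 35.1 and 37.0 normalized CPM in control libraries 1 to 5 and 131, 112, 95, 86.2 and 88.3 in Trpm7 cKO libraries 1 to 5. The control libraries were close to each other, and even the lowest Trpm7 cKO library stood clear of them. The log2 fold change was 1.52 (SE 0.173, 95% confidence interval 1.16 to 1.88, adjusted p = 8.8e-07), just past the threshold of 1.5, and with single libraries left out it ranged from 1.39 to 1.58. It fell under that threshold without Trpm7 cKO replicate 1 (1.39), without Trpm7 cKO replicate 2 (1.48) and without control replicate 1 (1.48). Of the last 500 bases of the Foxo1 transcript, from which 3′-end reads arise, 28.8% also occur in transcripts of other genes, and its counts are uncertain to that extent.

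Foxo3 (chr10:42181841-42276755, minus strand) had 29.8, 62.0, 41.8, 34.1 and 44.0 normalized CPM in control libraries 1 to 5 and 103, 103, 80.4, 72.9 and 116 in Trpm7 cKO libraries 1 to 5. Its control libraries were more scattered than those of Foxo1, and the groups still did not overlap. The means were 42.3 ± 12.4 and 95.1 ± 17.9 (SD, n = 5 each), with a log2 fold change of 1.15 (SE 0.207, adjusted p = 1.3e-04).

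Calcr encodes the calcitonin receptor, a receptor coupled to G proteins that restrains the cell cycle of resting MuSCs (chr6:3685680-3764714, minus strand). It was seen with 3, 5, 3, 6 and 3 UMI counts in control libraries 1 to 5 and with 28, 23, 12, 4 and 13 counts in Trpm7 cKO libraries 1 to 5. As normalized CPM these were 2.98, 5.16, 3.22, 6.02 and 3.47 in control and 51.7, 42.3, 43.8, 6.63 and 71.7 in Trpm7 cKO libraries. Trpm7 cKO replicate 4 lay next to the highest control, and the other Trpm7 cKO libraries lay far above. No control library and 4 Trpm7 cKO libraries reached the minimum of the filter, which asks for 5. The ratio of the mean CPM was 10.4 (exact permutation test of the means, two-sided, p = 0.00794), and without Trpm7 cKO replicate 4 it was 12.6. Control replicates 1, 3 and 5, with 3 counts each, were at the floor of counting, so the size of these ratios is uncertain. In raw UMI counts the groups overlapped. When no filter was applied, edgeR gave a log2 fold change of 2.97 (95% confidence interval 2.24 to 3.70, adjusted p = 5.9e-14). That fit took in 21914 genes, and its adjusted p-values are not comparable with those of the filtered fit. Between the filtered and the unfiltered fit, the adjusted p of Chodl moved from 1.9e-07 to 2.0e-60 and that of Sdc4 from 0.0189 to 0.267.

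Cxcr4 encodes the receptor of the chemokine CXCL12, which guides migrating muscle progenitors (chr1:128588199-128592293, minus strand). Its normalized CPM was 94.5, 129, 116, 96.4 and 107 in control libraries 1 to 5 and 194, 142, 197, 217 and 149 in Trpm7 cKO libraries 1 to 5. The lowest Trpm7 cKO library was close to the highest control library. The log2 fold change was 0.74 (SE 0.157, adjusted p = 5.9e-04). Cxcr4 is also transcribed in many leukocytes, and it was the only one of the 10 genes whose highest level was in Trpm7 cKO replicate 4. That library had the highest summed leukocyte markers, at 6541 normalized CPM. Replicate 5, with 5987, had 149 of Cxcr4, next to the lowest of its group. The part of leukocytes in the level of Cxcr4 was not tested.

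Chodl encodes chondrolectin, a membrane protein of the C-type lectin family (chr16:78930948-78951733, plus strand). It had 20.9, 41.3, 27.9, 30.1 and 45.1 normalized CPM in control libraries 1 to 5 and 455, 412, 358, 156 and 502 in Trpm7 cKO libraries 1 to 5. The lowest Trpm7 cKO library, replicate 4, was still above every control library. The means were 33.1 ± 9.97 and 377 ± 134 (SD, n = 5 each), and the log2 fold change of 3.49 (SE 0.292, 95% confidence interval 2.87 to 4.11, adjusted p = 1.9e-07) was the highest of the 8 genes tested. In raw UMI counts too, the Trpm7 cKO libraries, with 91 to 246 counts, lay above the control libraries, with 21 to 40 counts, although they were the smaller libraries.

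Cd34 encodes a sialomucin of the cell surface that is lost as MuSCs are activated and that endothelial and other progenitor cells also carry (chr1:194938819-194961279, plus strand). It had 25.9, 39.2, 22.5, 15.1 and 44.0 normalized CPM in control libraries 1 to 5 and 111, 129, 157, 161 and 209.7 in Trpm7 cKO libraries 1 to 5. The groups were well apart, and replicate 4 was not low for this gene. The log2 fold change was 2.34 (SE 0.241, 95% confidence interval 1.84 to 2.85, adjusted p = 3.0e-07).

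Vcam1 encodes the adhesion molecule CD106, on which MuSCs are often sorted (chr3:116109949-116129688, minus strand). It had 394, 402, 473, 446 and 501 normalized CPM in control libraries 1 to 5 and 632, 624, 504, 399 and 381 in Trpm7 cKO libraries 1 to 5. The groups overlapped, with Trpm7 cKO replicates 1 and 2 above every control, replicate 3 just above the highest control and replicate 5 below every control. Vcam1 was the only tested member that did not pass, with a log2 fold change of 0.21 (95% confidence interval −0.12 to 0.53, adjusted p = 0.284). When Trpm7 cKO replicates 4 and 5 were both left out, a choice made after the data were seen, the log2 fold change was 0.39 and passed (adjusted p = 0.0229).

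Sdc4 and Sdc3 encode syndecans, heparan sulfate proteoglycans that hold growth factors and Wnt ligands near their receptors and are carried by MuSCs. Sdc4 (chr2:164424247-164443887, minus strand) had 406, 426, 344, 388 and 384 normalized CPM in control libraries 1 to 5 and 449, 565, 482, 439 and 784 in Trpm7 cKO libraries 1 to 5. The lowest Trpm7 cKO value was just above the highest control value, and replicate 5 stood above the rest. The log2 fold change was 0.46 (SE 0.156, adjusted p = 0.0189). The call was lost without Trpm7 cKO replicate 5 (log2 fold change 0.31, adjusted p = 0.0628) and without control replicate 3 (log2 fold change 0.41, adjusted p = 0.0601).

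Sdc3 (chr4:130792537-130826319, plus strand) was near the limit of detection, with 4, 2, 6, 5 and 2 UMI counts in control libraries 1 to 5 and 0, 2, 1, 10 and 7 counts in Trpm7 cKO libraries 1 to 5. Trpm7 cKO replicates 4 and 5 held most of the counts of their group, and the groups overlapped. The exact permutation test of the mean CPM gave p = 0.381 (two-sided), so a difference was not detectable at this depth. Its 3′ end overlaps Gm26716 on the other strand, and without the strand setting of the counting, which is not given in the sources used here, reads of these genes cannot be told apart.

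**Figure D1:**
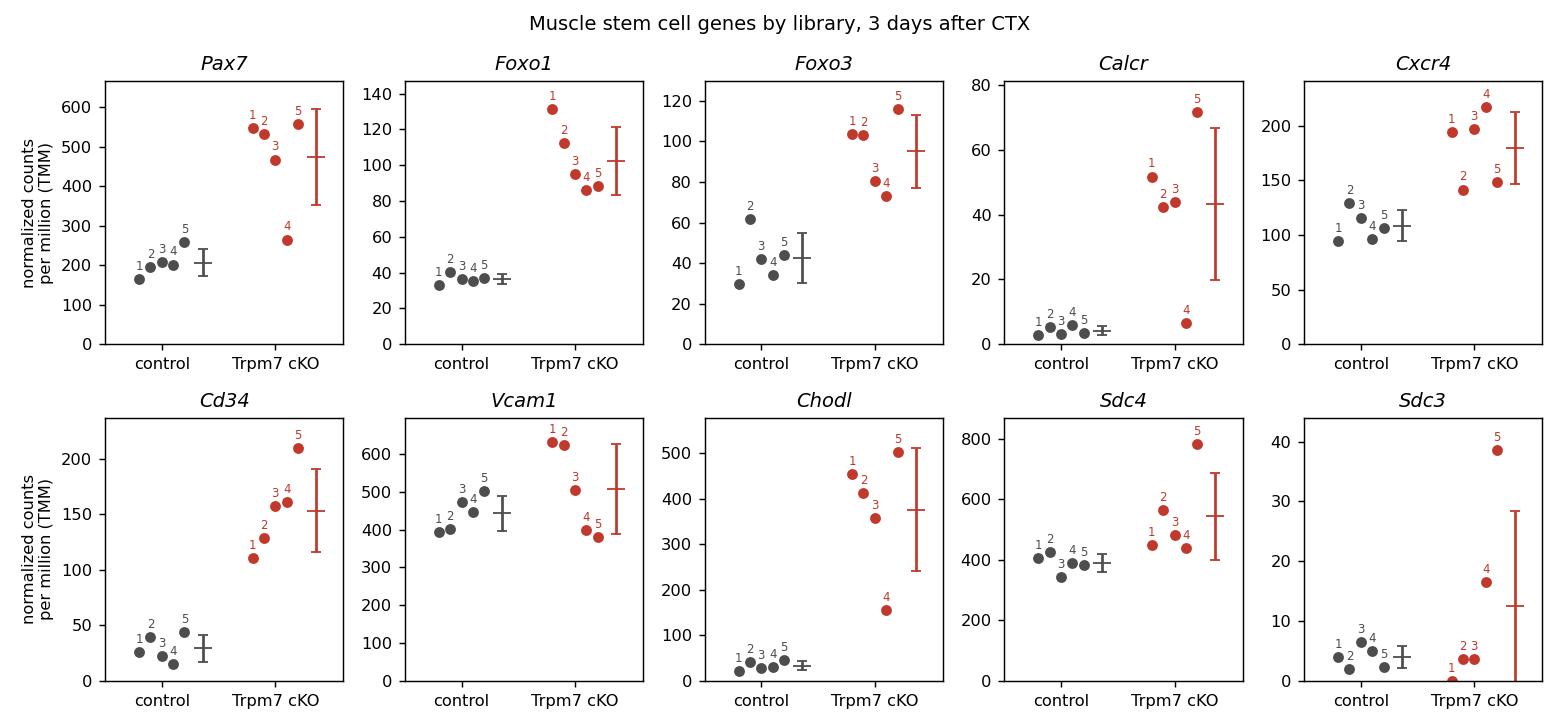
Normalized CPM (vertical axis, linear and from 0, a scale for each gene) of the 10 genes in the 5 control (grey) and 5 Trpm7 cKO (red) libraries, with replicate numbers beside the points and the mean ± SD beside each group (the lower bar of Sdc3 is cut at 0). Chodl, Cd34 and Foxo1 are clearly apart between the groups, Vcam1 and Sdc3 overlap, and Trpm7 cKO replicate 4 is the lowest of its group for 6 genes.

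The Trpm7 cKO libraries did not vary in the same way for every gene. Replicate 4 was the lowest of its group for 6 of the 10 genes (Pax7, Foxo1, Foxo3, Calcr, Sdc4 and Chodl) and the highest for Cxcr4. Replicate 5, the smallest library, was the highest of its group for 7 genes. Among the controls Foxo1 stayed between 32.8 and 40.3 normalized CPM, while Cd34 spanned 15.1 to 44.0.

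These differences are relative to the other transcripts of each library. When libraries were compared by sorted cells instead, the log2 fold change of 5 of the 8 tested genes changed sign. Of these 5, Pax7 and Foxo3 came to about 0, and only Vcam1 was lower at an adjusted p below 0.05. TMM scaling sets the typical gene near 0, where the median over all genes tested was −0.01. Taking the counts per 3000 sorted cells moved that median to −1.15, since the Trpm7 cKO libraries held fewer counts. Library totals also depend on sequencing depth and on how much RNA was captured, which were not separated here. This scale is therefore not a measure of RNA per cell. On that scale the log2 fold change of Pax7 was −0.0030 (adjusted p = 0.995) and that of Foxo3 was −0.014 (adjusted p = 0.972), with means of 195 ± 20.5 and 195 ± 91.6 UMI counts of Pax7 per library in control and Trpm7 cKO MuSCs (SD, n = 5 each). Foxo1 at 0.38 (adjusted p = 0.354), Cxcr4 at −0.39 (adjusted p = 0.343) and Sdc4 at −0.77 (adjusted p = 0.0539) did not pass either. Vcam1 was lower at −0.90 (adjusted p = 0.0251), while Cd34 at 1.15 (adjusted p = 0.0054) and Chodl at 2.27 (adjusted p = 1.8e-07) were still higher. Relative to the median of all genes on the same scale, Pax7 stood 1.15 higher, Chodl 3.42 higher and Vcam1 0.25 higher.

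When libraries were scaled instead on 34 other identity and quiescence genes of MuSCs, the median of all genes tested was −0.23. The 34 genes are of the same kind as the members and were chosen with earlier results known. Scaling on them by itself lowers the members, as the shift of the median shows. Cxcr4 at 0.54 (adjusted p = 0.0581) and Sdc4 at 0.24 (adjusted p = 0.37) no longer passed on this scale. Vcam1 turned to −0.05 (adjusted p = 0.858). Pax7, Foxo1, Foxo3, Cd34 and Chodl passed on this scale as well. Over all genes tested, 70.6% of those past both thresholds were higher in Trpm7 cKO MuSCs with TMM, 53.2% with scaling on these genes and 7.62% per 3000 sorted cells.

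**Figure D2:**
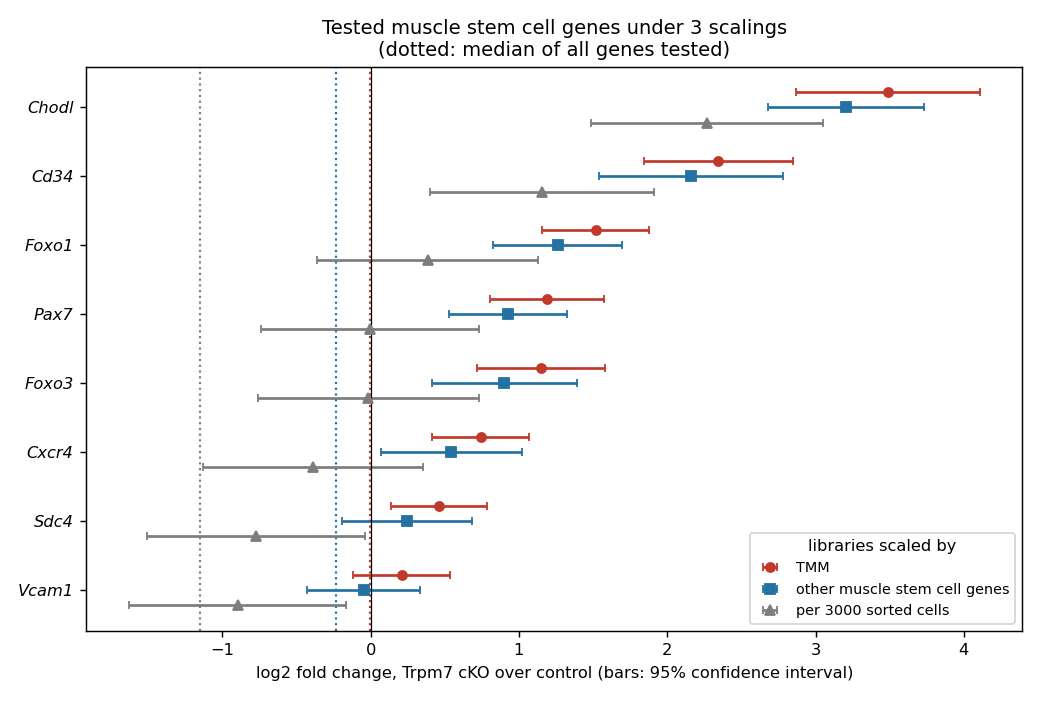
Log2 fold change of the 8 tested genes (horizontal axis, Trpm7 cKO over control, bars for the 95% confidence interval) with TMM (red), with scaling on other muscle stem cell genes (blue) and per 3000 sorted cells (grey), dotted lines marking the median of all genes tested on each scale. Chodl and Cd34 lie above 0 on all 3 scales, and the intervals of Pax7, Foxo1, Foxo3 and Cxcr4 span 0 per 3000 sorted cells.

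A ratio of UMI counts within a library needs no scaling, and ratios to Pax7, chosen after the data were seen, are given as a description without a test. Chodl had 0.126 to 0.211 counts for each Pax7 count in control libraries and 0.588 to 0.901 in Trpm7 cKO libraries. The same ratio of Cd34 was 0.0746 to 0.200 in control and 0.203 to 0.606 in Trpm7 cKO libraries, so that both genes were higher relative to Pax7 as well. The ratio of Vcam1 moved the other way, with 1.93 to 2.37 counts per Pax7 count in control and 0.683 to 1.51 in Trpm7 cKO libraries. With TMM the log2 fold change of Vcam1 itself was 0.21 and did not pass (adjusted p = 0.284), so this ratio was lower while Pax7 was higher. The ratios of Foxo1, Foxo3, Cxcr4 and Sdc4 overlapped between the groups. That of Calcr overlapped through Trpm7 cKO replicate 4 alone (0.025), with medians of 0.018 in control and 0.0938 in Trpm7 cKO libraries. The Calcr ratio rests on few counts.

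Against the differentiation genes the contrast was wider. Myod1, the factor of activated MuSCs, had 2.81 to 4.6 counts per Pax7 count in control and 0.238 to 0.888 in Trpm7 cKO libraries, and its own log2 fold change was −2.01. Myog, the factor of differentiating myoblasts, had 2.04 to 2.83 in control and 0.176 to 0.383 in Trpm7 cKO libraries, with a log2 fold change of −2.0. Among the lineage markers, the ratio of Cdh15, which encodes M-cadherin, was also lower in every Trpm7 cKO library. Its own log2 fold change was 0.11 and did not pass (adjusted p = 0.617), so this ratio was lower while Pax7 was higher. The ratio of Myf5 overlapped, and its own log2 fold change was 0.81 (adjusted p = 0.0357).

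**Figure D3:**
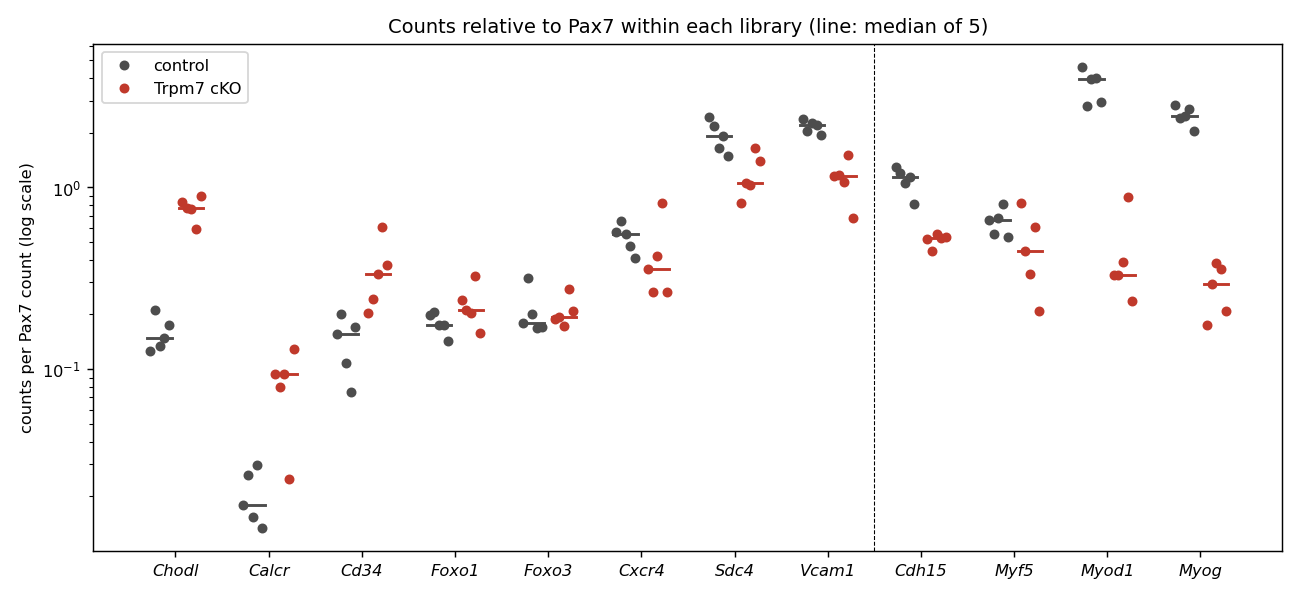
UMI counts of each gene per count of Pax7 in the same library (vertical axis, log scale) in 5 control (grey) and 5 Trpm7 cKO (red) libraries, with a line at each median and the members to the left of the dashed line. Chodl and Cd34 are higher in every Trpm7 cKO library, and Vcam1, Cdh15, Myod1 and Myog are lower in every Trpm7 cKO library.

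Other genes of the same biology were counted from lists that were drawn up with earlier results of these data known. Their counts and the p-values of their summed levels are therefore given as a description. Their values are with TMM, and the counts per 3000 sorted cells are given for each list because that scale lowers all genes. Among other identity genes of MuSCs, 15 of 17 were tested, of which 6 were higher, 5 were lower and 4 did not pass, with a median log2 fold change of 0.11 against −0.01 for all genes tested. Of all genes tested, 24.6% were higher and 24.1% were lower. Dmd, which encodes dystrophin, rose by 1.57 (log2), and the growth factor receptors Fgfr1 and Fgfr4 rose by 1.27 and 0.88. Met, the receptor of hepatocyte growth factor, had a log2 fold change of −1.49, and the homeobox factor Six4 had −0.64. Per 3000 sorted cells 0 of the 15 were higher and 9 were lower, against 4.9% and 66.6% of all genes tested, with Fgfr4 turning to −0.31. With TMM identity genes moved in both directions, as did all genes tested, and the exact permutation test of their summed level gave p = 0.413 (two-sided).

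Of 17 quiescence genes 14 were tested, of which 7 were higher, 0 were lower and 7 did not pass, with a median log2 fold change of 0.63. The shares over all genes tested were 24.6% higher and 24.1% lower. Col5a3 and Col5a1, chains of the collagen V that MuSCs lay down in their niche, rose by 1.88 and 1.41 (log2). Hey1, a target of Notch, rose by 0.92, with 17.1 to 22.9 normalized CPM in control libraries and 18.2 to 57.3 in Trpm7 cKO libraries, which overlapped. Taken per 3000 sorted cells, 0 of the 14 were higher and 4 were lower, against 4.9% and 66.6% of all genes tested, with Hey1 turning to −0.23. Heyl, another Notch target, with TMM had a log2 fold change of 0.96 and did not pass (adjusted p = 0.0574). The summed level of the 17 genes ranged from 1447 to 1761 normalized CPM in control and from 1567 to 3352 in Trpm7 cKO libraries (two-sided exact permutation p = 0.0317).

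Genes known as FOXO targets were counted as well. Of 16 such genes 14 were tested, of which 5 were higher, 4 were lower and 5 did not pass, with a median log2 fold change of 0.32. Over all genes tested 24.6% were higher and 24.1% lower. Txnip, an inhibitor of thioredoxin that many nutrient signals control, rose from 36.8 ± 10.2 to 1302 ± 466 normalized CPM (SD, n = 5 each), a log2 fold change of 5.14. Sesn1, a stress-induced inhibitor of mTORC1, rose by 2.44 and Irs2, an adaptor of the insulin receptor, by 1.79. Fbxo32, the ubiquitin ligase known as atrogin-1, had a log2 fold change of −2.38, and Sod2 and Sesn3, which act against oxidative stress, had −0.90 and −0.88. Per 3000 sorted cells 2 of the 14 were higher, Txnip and Sesn1, and 7 were lower, against 4.9% and 66.6% of all genes tested. The targets did not move as a block, and Txnip made up much of their summed level, for which the exact permutation test gave p = 0.00794 (two-sided).

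Among ligands, coreceptors and relatives of the members, 13 of 22 were tested, of which 5 were higher, 4 were lower and 4 did not pass, with a median log2 fold change of 0.16. All genes tested had 24.6% higher and 24.1% lower. Cxcl12, the ligand of CXCR4, rose by 1.77 (log2), Ramp2, which modifies calcitonin family receptors, by 1.47 and Podxl, a sialomucin related to CD34, by 1.39. Akt1, a kinase that inactivates FOXO proteins, had a log2 fold change of −1.18, from 416 ± 16.8 to 178 ± 62.6 normalized CPM (SD, n = 5 each). Fzd7, a Wnt receptor that acts with syndecan 4, had −1.45, and Sdc1, a further syndecan, had −0.55. Per 3000 sorted cells 0 of the 13 were higher and 7 were lower, against 4.9% and 66.6% of all genes tested. On that scale Cxcl12 (0.61), Ramp2 (0.29) and Podxl (0.16) kept a positive sign and did not pass. The summed level of the 22 genes gave p = 0.984 (exact permutation test, two-sided).

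**Figure D4:**
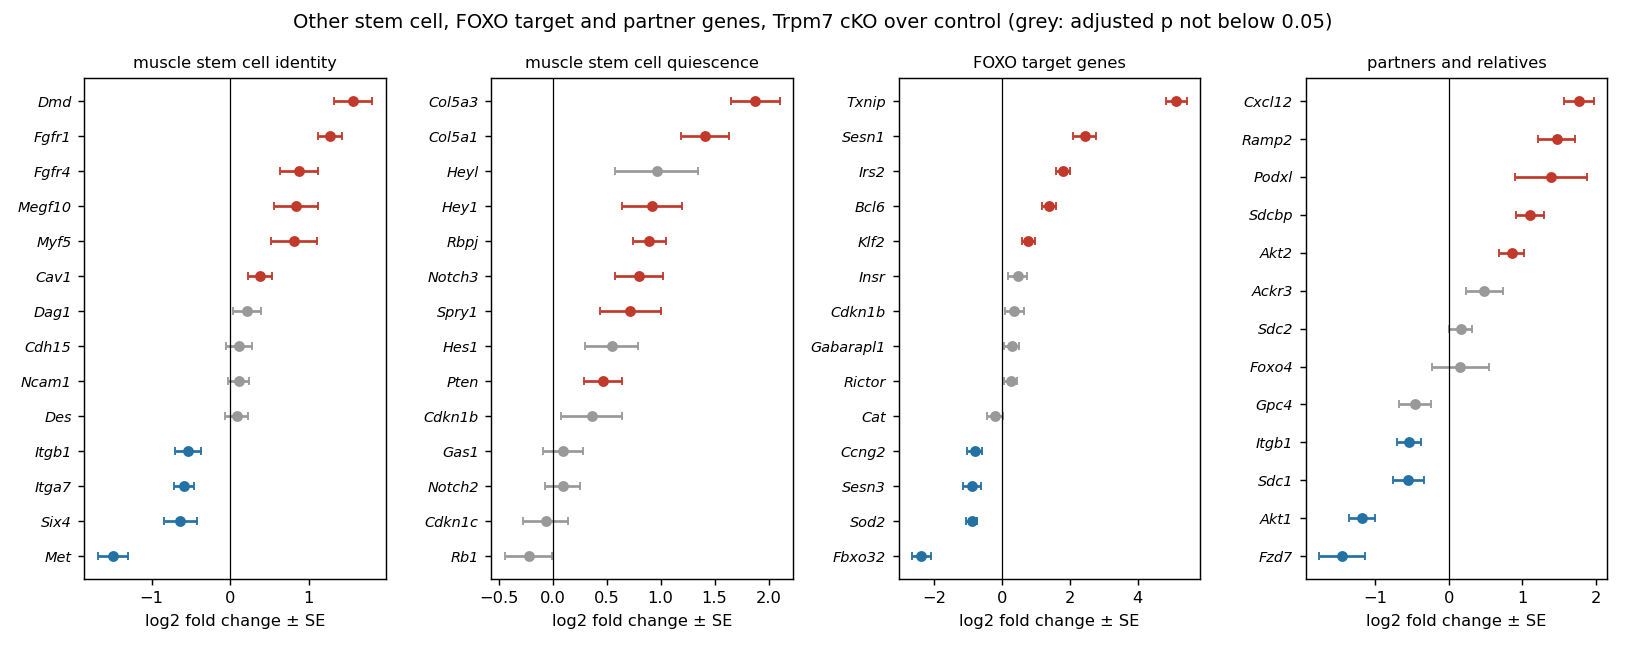
Log2 fold change ± SE (horizontal axis, Trpm7 cKO over control) of tested genes from 4 lists with TMM, in red where higher, in blue where lower and in grey where the adjusted p was not below 0.05. Identity genes, FOXO targets and partners range on both sides of 0, from Txnip at 5.14 to Fbxo32 at −2.38. No quiescence gene passed on the lower side with this scaling, whereas 4 did per 3000 sorted cells, as did 66.6% of all genes tested.

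Markers of other cell types were higher in the same Trpm7 cKO libraries. Summed leukocyte markers came to 412 to 706 normalized CPM in control libraries and to 3805, 1515, 3873, 6541 and 5987 in Trpm7 cKO libraries 1 to 5 (exact permutation test, two-sided, p = 0.00794). Of 25 leukocyte markers 24 were in the table and 19 were tested, and all 19 were higher, Ptprc, which encodes CD45, from 8.0 ± 4.70 to 56.7 ± 26.1 normalized CPM. All 3 tested endothelial markers were higher, among them Pecam1 and Cdh5, each at 0 in control replicate 3, and the summed 12 markers ranged from 7.51 to 79.9 in control and from 140 to 839 in Trpm7 cKO libraries. The filter asks for about 13.4 CPM in 5 libraries. Cdh5 and the leukocyte markers Adgre1 and Csf1r had at most 9.26, 5.79 and 11.8 normalized CPM in control libraries. They passed only through the Trpm7 cKO libraries, so the counts of tested markers called higher lean on the filter. The summed levels also take in markers that were not tested. All 5 tested fibroadipogenic markers, with Ly6a, which encodes Sca-1, at a log2 fold change of 2.21, and all 3 tested pericyte and smooth muscle markers, with Rgs5 at 3.49, were higher too. Of these lists, summed fibroadipogenic markers ranged from 511 to 749 in control and from 1372 to 2086 in Trpm7 cKO libraries, and summed pericyte and smooth muscle markers from 424 to 679.6 and from 943 to 1412. On the scale of counts per 3000 sorted cells, 18 of the 19 leukocyte, 3 of the 3 endothelial, 3 of the 5 fibroadipogenic and 2 of the 3 pericyte and smooth muscle markers were still higher. Of all genes tested, 24.6% were higher with TMM and 4.9% per 3000 sorted cells. None of the 5 Schwann cell markers was tested, and their sum was 10.9 to 18.6 in control and 9.20 to 143 in Trpm7 cKO libraries.

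The cells had been sorted as YFP-positive, and the part of these other cells in the levels of Cd34, Cxcr4, Vcam1 and Sdc4, which leukocytes, vessels or fibroblasts also express, was not tested. Trpm7 cKO replicate 2, with the lowest summed leukocyte markers of its group, had 532 normalized CPM of Pax7, 412 of Chodl and 129 of Cd34, all above every control library. Replicate 4, with the highest, had the lowest Pax7 and Chodl of its group and 161 of Cd34. Replicate 5, with 5987 summed leukocyte markers, had the highest of its group for each of these genes, at 557, 502 and 209.7. Over Trpm7 cKO replicates 1 to 5, Cd34 at 111, 129, 157, 161 and 209.7 had the same order as the summed endothelial markers. These were 140, 142, 285, 482 and 839. In control libraries 1 to 5 the orders differed. Cd34 was there at 25.9, 39.2, 22.5, 15.1 and 44.0, with summed endothelial markers at 22.9, 19.6, 7.51, 37.1 and 79.9. The part of endothelial cells in the level of Cd34 was not tested.

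**Figure D5:**
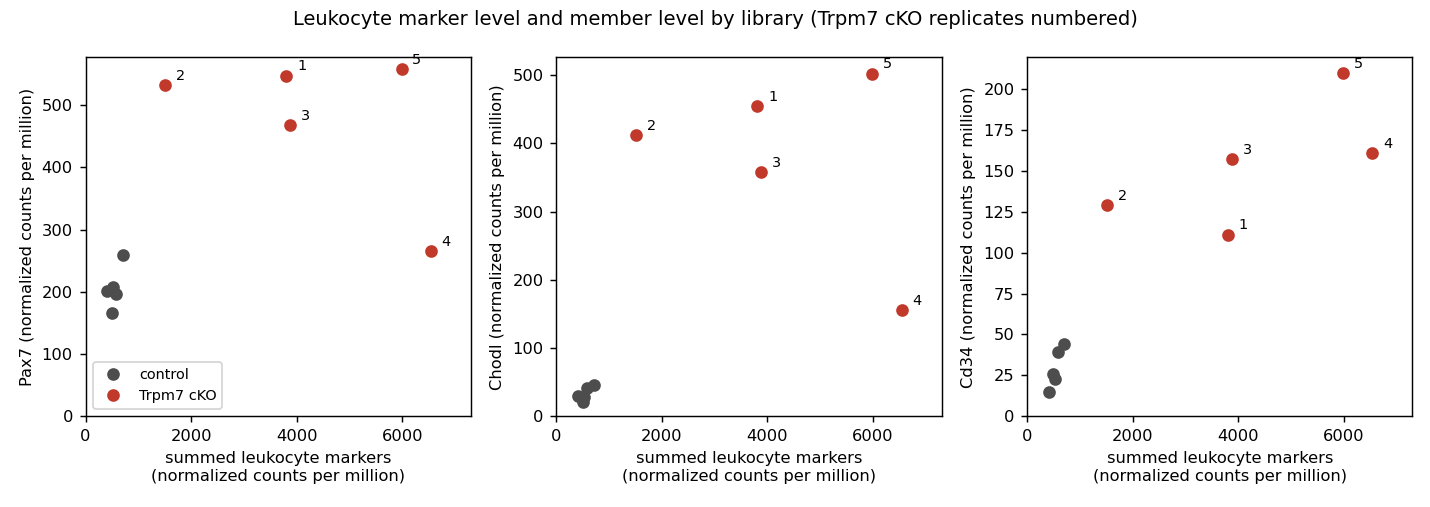
Normalized CPM of Pax7, Chodl and Cd34 (vertical axes) against the summed normalized CPM of leukocyte markers (horizontal axis) in 5 control (grey) and 5 Trpm7 cKO (red, numbered) libraries. Trpm7 cKO replicate 2 has 1515 summed leukocyte markers with 532 of Pax7, replicate 4 has 6541 with 265 and replicate 5 has 5987 with 557.

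The tested genes whose profile over the 10 libraries was closest to that of Pax7, by the root mean square difference of centred log2 CPM, were Gadd45a (0.144), Tra2b (0.146), Gsn (0.164), Olfml2a (0.169) and Tshz3 (0.178), where the median over all tested genes was 0.78. Gsn is one of the fibroadipogenic markers listed here. The profile of Calcr was closest to those of Itih5 (0.37), Bcl3 (0.423), Gm13889 (0.456), Fas (0.462) and Rnf122 (0.473), with a median of 1.5. For Foxo3 they were Zswim8 (0.172), Fosl2 (0.178), Arsk (0.191), Tnfrsf1a (0.192) and Fgfr1 (0.196), with a median of 0.765. These profiles share the 10 libraries and their depth, and closeness is given as a description.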

How the data were processed

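Activated MuSCs were analysed in 5 control and 5 Trpm7 cKO libraries, with genotype and replicate number taken from the sample labels. The authors extracted UMIs with UMI-tools 1.1.4, trimmed reads with Trim Galore 0.6.10, aligned them to GRCm38 with HISAT2 2.2.1, assigned them with featureCounts 2.0.6 and deposited raw counts, whole numbers of molecules per gene without normalization. The submitters' processing notes also name DESeq2 1.30.1. The annotation release and the strand setting are not given in the sources used here. No pair of libraries within a group was alike to within sampling noise. Whether libraries came from separate animals is not stated for each, so p-values measure the spread between these libraries.

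The table has 24620 entries under 24608 symbols, and where a symbol recurred (12 cases) the entry with the larger total was used. The test was that of edgeR 4.0.16 (R 4.3.3): filterByExpr (minimum count 10, minimum total 15), TMM, a robust quasi-likelihood fit with genotype alone and Benjamini-Hochberg adjustment over 7753 genes. Log2 CPM used a prior count of 2. Single values were compared by exact permutation over 252 splits. The tests were checked on simulated counts. Alternatives were RLE size factors, total counts, scaling on other MuSC genes, counts per 3000 sorted cells, DESeq2 1.42.0, limma-voom (limma 3.58.1), other filters, a block for the replicate number, thinning to 205980 counts per library, each library left out and a log2 threshold of 1. Leaving out Trpm7 cKO replicates 4 and 5 together was added after the data were seen.

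Gene positions and shared sequence (matches of 31 bases) came from the GENCODE M21 annotation of GRCm38 and promoter windows, 250 bases before to 50 after a start site, from RefSeq. The members and gene lists were chosen with earlier results of these data known. Named beside the members are up to 3 highest and 3 lowest genes with an adjusted p below 0.05 of each list, Trpm7, Myod1, Myog, defining markers and the 5 closest profiles to Pax7, Calcr and Foxo3. A gene of this rule is counted with its list and not reported here. Heyl was named outside this rule after its values were seen. With 205986 to 1097709 counts per library, counts of about 3 or fewer were treated as the floor, which covers counting error only.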

Additional observations from a re-analysis of the deposited data

How the results depend on the processing

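Cd34, Chodl and the ratio of Calcr kept their direction and stayed below 0.05 in p (adjusted for Cd34 and Chodl, exact for Calcr) under every alternative that gave them a value, and log2 fold changes ranged from 1.15 to 2.54 for Cd34 and from 2.27 to 3.69 for Chodl, with Cd34 under the log2 threshold of 1.5 per 3000 sorted cells (1.15). Per 3000 sorted cells, 2 members were higher, 1 was lower and 1 passed both thresholds, and the log2 fold changes that changed sign were Pax7 (−0.0030), Foxo3 (−0.014), Cxcr4 (−0.39), Sdc4 (−0.77) and Vcam1 (−0.90). Over all genes, 380 were then higher, 5162 lower, 203 higher past both thresholds and 2461 lower past both. With TMM these were 1908, 1866, 658 and 274. The construction of the scale per sorted cell shifts all genes down, since every Trpm7 cKO library held fewer counts. Sequencing depth and RNA capture also enter that scale. Scaled on other MuSC genes, Vcam1 was at −0.047, 1250 genes were higher and 432 lower past both thresholds. Without a filter on 21914 genes, 2881 were higher, 1813 were higher past both thresholds and 623 lower past both, and Sdc4 fell short at 0.24 (adjusted p = 0.267). With at least 20 counts in 5 libraries 342 genes were higher past both thresholds. Thinned to the smallest library, with 3914 genes tested, 925 were higher, 890 lower, 297 higher past both thresholds and 144 lower past both. With a log2 threshold of 1, 5 members, 1144 genes higher and 782 lower passed both thresholds. With Trpm7 cKO replicates 4 and 5 both left out, 432 genes were lower past both thresholds and Sdc3 turned to a log2 ratio of −0.73, a value that rests on few counts. Where not given otherwise, the cause was not tested. Leaving out single libraries gave 6 to 8 members higher, 0 lower, 2 to 4 higher past both thresholds and 0 lower past both, but where 9 rather than 8 members were tested the ninth was Calcr, without which the ranges were 6 to 7 and 2 to 3. Over all genes the ranges were 1755 to 2094 higher, 1623 to 2000 lower, 677 to 824 higher past both thresholds and 244 to 416 lower past both, the last without Trpm7 cKO replicate 4. The replicate numbers do not pair the libraries (correlations of deviations −0.04, −0.12, −0.07, 0.06 and 0.18 for numbers 1 to 5, and only number 5 correlated best with its own). With the replicate number as a block, 7 members were higher and 2 passed both thresholds, Foxo1 being at 1.498 just under the threshold, and over all genes 645 and 294 passed both. DESeq2 and limma-voom each called 7 members higher and 0 lower. Depth limits Calcr and Sdc3, seen with at most 28 counts in a library.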
